A study of Mus musculus with 12 samples.

Results

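The genes *Rorb*, *Rora*, *Dbx2*, *Lhx2*, *Fezf2* and *Pou3f3* encode transcription factors that the study names as factors of mature astrocytes. All 6 rows were found by symbol among the 31053 genes of the table of unique molecular identifier (UMI) counts, in which each UMI stands for 1 captured RNA molecule. The study chose these genes for being higher in adult astrocytes, in cortical bulk or striatal single-cell data. It also drew on ROR and homeodomain motifs in chromatin that opens with maturation. For *Rorb*, *Dbx2*, *Lhx2* and *Fezf2* it drew on low levels in cultured astrocytes as well. Whether the libraries analysed here were among the single-cell data behind that choice is not given in the sources used here. The direction of change of the 6 genes is therefore not independent evidence.

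The data were single-cell 3′ RNA-sequencing counts of wild-type mice. The labels give their strain as mixed, whereas the methods of the study name C57BL/6Jax mice as the source of brain tissue, and this conflict was not resolved. Magnetic sorting for the astrocyte antigen ACSA2 had been used to enrich cells of the striatum, and no cells carried a transgene or a treatment according to the labels. The labels list 12 sequencing runs, which belong to 2 libraries of postnatal mice (PN) and 2 of mice aged 3 months (3m). The titles and age tags of the postnatal libraries conflict, with day 7 and day 3 for PN replicate 1 and day 3 and day 7 for PN replicate 2, so both formed 1 postnatal group. The methods of the study state that tissue of several mice was pooled per preparation. The results section of the study describes more preparations per age than the 2 analysed here, so it is open whether the statement covers these libraries. The p-values measure only the spread between these libraries.

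After the filter of the study (at most 10% mitochondrial UMIs and at least 500 genes per cell), 555 and 724 postnatal cells and 1120 and 764 3m cells remained. Median depth ranged from 7738 to 11640 UMIs per cell. Each cell was assigned to 1 of 9 classes from markers that include none of the 6 factors, and the class whose markers are known from astrocytes and radial glia is called astroglia here. Astroglia made up 68.1% and 76.4% of the postnatal cells but 28.7% and 40.6% of the 3m cells. At 3m, 50.6% and 38.7% of the cells carried oligodendrocyte markers, against 3 cells and 0 cells in the postnatal libraries. The label of purified astrocytes thus did not hold for a large share of the 3m cells, and astroglia-gated cells were analysed on their own (378, 553, 321 and 310 cells). In these cells all 8 astroglia markers were detected in every library, with a summed level of 6498 and 5475 UMIs per 1000000 UMIs of the cells summed (CPM) in the postnatal libraries and 14149 and 14972 CPM at 3m. This level thus moved with age as *Rorb* did below, and its part in the results was not tested. Beside them, the summed level of the 8 oligodendrocyte markers was 12.6 and 10.2 CPM in the postnatal libraries and 425 and 165 CPM at 3m, and that of the 8 precursor markers was 422 and 377 CPM and then 172 and 141 CPM. PN replicate 2 and 3m replicate 2 shared 95 cell barcodes, and the other pairs of libraries shared at most 2.

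*Rorb* and *Rora* encode the nuclear receptors RORβ and RORα. These bind ROR response elements as activators, at sites that the repressors REV-ERBα and REV-ERBβ also recognise, and RORα is known as a part of the circadian clock. *Dbx2*, *Lhx2* and *Pou3f3* are homeodomain factors known from the patterning of the neural tube, the specification of the forebrain and the generation of upper-layer cortical neurons, and *Fezf2* is a zinc finger factor known for specifying deep-layer projection neurons. The study asks which transcription factors set adult astrocytes apart from immature ones.

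In the mm10 build and the GENCODE vM21 annotation, *Rorb* lies on chromosome 19 (18930605 to 19111196, minus strand), *Rora* on chromosome 9 (68653786 to 69388246, plus strand) and *Dbx2* on chromosome 15 (95623563 to 95655960, minus strand). *Lhx2* lies on chromosome 2 (38339281 to 38369733, plus strand), *Fezf2* on chromosome 14 (12342094 to 12348189, minus strand) and *Pou3f3* on chromosome 1 (42695768 to 42703176, plus strand). All 6 are protein coding and no 2 of them share a chromosome. Their spans range from 6096 bases for *Fezf2* to 734461 bases for *Rora*. *Pou3f3* has 1 annotated exon, whereas *Rora* has 22 distinct exons in 6 transcripts. An antisense gene overlaps an exon of *Rora*, and it had 0 UMIs in astroglia. The 2 antisense genes within *Lhx2* had 5 UMIs and 1 UMI. A gene on the same strand, *AC122898.1*, spans *Pou3f3* (42694925 to 42744791) without overlap of their exons, and it is not a row of the count table used here.

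The RefSeq promoter table (GRCm38.p6, the assembly of mm10) holds 8 windows of these genes, each from 250 bases before to 50 bases after a transcription start. The windows of the 3 genes that were called higher with age below (for *Rorb* the upstream start of 2), and that of *Pou3f3* with its repeated matches, are given 5′ to 3′ on the strand of the gene, with matches to the CCAAT box (CCAAT, or ATTGG on the other strand) in capitals. They lie at chr19:19111147-19111446 for *Rorb*, chr9:68653536-68653835 for *Rora*, chr14:12345816-12346115 for *Fezf2* and chr1:42695518-42695817 for *Pou3f3*.
Rorb: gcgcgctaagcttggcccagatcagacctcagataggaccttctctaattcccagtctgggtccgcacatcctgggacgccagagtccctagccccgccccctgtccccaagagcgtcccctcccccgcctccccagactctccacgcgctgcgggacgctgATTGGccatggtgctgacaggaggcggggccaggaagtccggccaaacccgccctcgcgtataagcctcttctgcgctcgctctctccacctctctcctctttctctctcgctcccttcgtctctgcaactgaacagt
Rora: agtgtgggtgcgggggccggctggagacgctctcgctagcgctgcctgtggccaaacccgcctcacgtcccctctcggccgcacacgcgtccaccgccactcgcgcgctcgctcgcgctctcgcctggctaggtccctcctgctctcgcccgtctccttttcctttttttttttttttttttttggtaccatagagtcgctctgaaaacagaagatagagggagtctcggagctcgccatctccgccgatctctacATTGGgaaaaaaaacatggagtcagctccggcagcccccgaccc
Fezf2: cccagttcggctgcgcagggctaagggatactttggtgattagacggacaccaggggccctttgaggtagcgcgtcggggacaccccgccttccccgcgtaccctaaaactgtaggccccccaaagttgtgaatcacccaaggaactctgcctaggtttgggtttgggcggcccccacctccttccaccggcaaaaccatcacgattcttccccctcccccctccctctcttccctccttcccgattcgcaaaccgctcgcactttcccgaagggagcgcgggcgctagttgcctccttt
Pou3f3: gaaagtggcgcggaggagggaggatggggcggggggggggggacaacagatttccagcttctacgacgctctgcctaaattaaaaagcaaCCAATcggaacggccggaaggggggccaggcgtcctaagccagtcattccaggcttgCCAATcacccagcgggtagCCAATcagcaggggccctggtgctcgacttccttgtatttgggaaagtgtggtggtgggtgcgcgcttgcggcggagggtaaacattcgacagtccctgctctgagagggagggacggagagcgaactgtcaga

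*Pou3f3* held 3 CCAAT matches, at 160, 103 and 84 bases before the start (positions -160, -103 and -84), *Rorb* held 1 at -88 and *Rora* held 1 at 7 bases past the start. The windows of *Dbx2*, *Lhx2* and *Fezf2* held none. Of all 32851 windows in the table, 37.4% held this motif on either strand, so 3 of 6 genes with a match is a description only. The core of the ROR element (AGGTCA), the homeodomain motif TAATTA, the POU octamer ATGCAAAT and the TATA box TATAAA were found in none of the 8 windows on either strand, and they occurred in 16.3%, 5.29%, 1.74% and 13.6% of all windows. Except for the downstream start of *Rorb*, with 41.0% G and C, the windows ranged from 57.7% to 74.7% G and C against a median of 52.7%, and the highest value was that of *Lhx2*, with 34 CpG dinucleotides against a median of 7.

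The first comparison asked whether the factors differ between astroglia of the postnatal and the adult striatum. *Rorb*, *Rora* and *Fezf2* rose with age, and the other 3 factors were higher by their fitted values but did not pass the test. UMIs were summed per library and tested with edgeR's quasi-likelihood test, and calls required a log2 fold change of at least 1 in size together with a p of at most 0.05 after Benjamini-Hochberg adjustment over all 11800 genes tested. All 6 factors passed the filter on low counts. Of the genes tested, 14.0% were called higher at 3m and 10.9% lower, beside 3 of 6 and 0 of 6 factors. Both 3m libraries exceeded both postnatal libraries in CPM for 5 of the 6 factors, and this held for 26.8% of all genes tested. The reverse order was found for 0 of the 6 and for 48.9% of all genes.

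*Rorb* was at 490 and 336 CPM in the postnatal libraries and at 1132 and 1038 CPM at 3m. The groups were far apart, with 413 ± 109 CPM (SD, n = 2) against 1085 ± 66.2 CPM (SD, n = 2). The fitted log2 fold change was 1.65 ± 0.26 (SE), with an edgeR adjusted p of 0.00676. The gene was found in 83.3% and 86.3% of postnatal astroglia and in 92.2% and 89.7% of 3m astroglia, and the median positive cell held 5 UMIs at the younger age and 7 or 8 UMIs at 3m.

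*Rora*, the other ROR gene, was at 74.5 and 48.7 CPM in the postnatal libraries and at 108 and 133 CPM at 3m, again without overlap. Its log2 fold change was 1.24 ± 0.25 (SE), with an edgeR adjusted p of 0.0141. With no scaling between libraries it was 0.98, just under the limit on size, and without PN replicate 2 it was 0.92. Both ROR genes thus moved the same way, and both lay lower in PN replicate 2 than in PN replicate 1.

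*Fezf2* was the least frequent of the 6 in these cells, with 46 to 97 UMIs per library. It was at 11.6 CPM in each postnatal library and at 19.7 and 20.2 CPM at 3m. The exact Poisson 95% intervals, which cover counting error only, ran from 8.51 to 15.5 CPM and from 9.37 to 14.1 CPM in the postnatal libraries, and from 14.6 to 26.0 CPM and from 15.2 to 26.3 CPM at 3m. The log2 fold change was 1.05 ± 0.22 (SE), with an edgeR adjusted p of 0.0154. This lies close to the limit on size. The call was lost at 0.82 without cycling cells, at 0.89 without astroglia that held a UMI of an oligodendrocyte marker and at 0.78 with no scaling. It was also lost with no filter on low counts and with no limit on mitochondrial UMIs. With cells thinned to 2000 UMIs before summing, *Fezf2* did not pass the filter on low counts. DESeq2 gave 0.997 with an adjusted p of 0.0710.

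Relative to its level, *Dbx2* showed the widest spread between the postnatal libraries, with 115 and 33.2 CPM, against 168 and 175 CPM at 3m. The groups did not overlap, and the log2 fold change of 1.49 ± 0.54 (SE) was among the larger ones, yet the edgeR adjusted p was 0.0747. With the library number as a replicate block it was called higher (1.73, edgeR adjusted p of 0.0222), as it was with no filter on low counts (1.43, 4.1e-06) and with cells thinned to 2000 UMIs before summing (1.73, 0.013). DESeq2 gave 1.41 with an adjusted p of 0.225. Without PN replicate 1 the log2 fold change was 2.64 and the gene was called higher, and without PN replicate 2 it was 0.80 and was not. The size of the change of *Dbx2* therefore rests on which postnatal library is used, and the ages of these 2 libraries are the ones on which the labels conflict.

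*Lhx2* was at 189 and 253 CPM in the postnatal libraries and at 253 and 248 CPM at 3m. PN replicate 2 was level with the 3m libraries, so the groups overlapped. Its log2 fold change was 0.45 ± 0.18 (SE), with an edgeR adjusted p of 0.0994.

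*Pou3f3* was at 329 and 338 CPM in the postnatal libraries and at 372 and 375 CPM at 3m. The groups did not overlap, but the difference was small, with a log2 fold change of 0.43 ± 0.16 (SE) and an edgeR adjusted p of 0.0818. For these last 2 genes much of the fitted difference came from the scaling between libraries. The trimmed mean of M values centred the genes tested at a median log2 fold change of 0.00 (-0.0035), whereas with no scaling that median was -0.27, and *Lhx2* and *Pou3f3* were then at 0.18 and 0.16. Without scaling, 37.5% of the called genes were higher at 3m, against 56.3% with it. All 6 log2 fold changes were above 0 with either scaling.

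**Figure D1:**
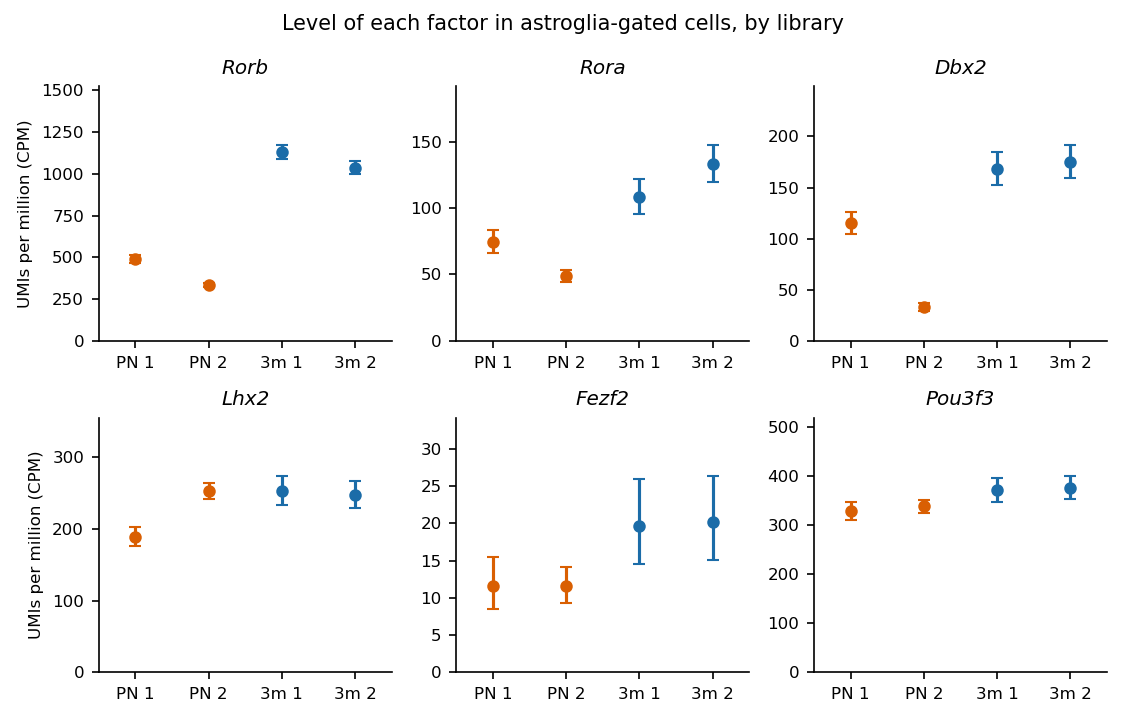
CPM of each factor (y axis, from 0) in astroglia-gated cells of the PN libraries (orange) and the 3m libraries (blue), with points for single libraries and bars for exact Poisson 95% intervals. *Rorb* is at 1038 CPM or more in both 3m libraries and at 490 CPM or less in both PN libraries, whereas *Lhx2* of PN replicate 2 lies level with the 3m libraries.

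With 2 libraries a group, the calls depended on each library. Without 3m replicate 1, *Rorb*, *Rora* and *Fezf2* had edgeR adjusted p-values of 0.0605, 0.0605 and 0.0905, and without 3m replicate 2 these were 0.0552, 0.103 and 0.104, so that 0 of 6 factors were called in each case, while 6 of 6 log2 fold changes stayed above 0. Without PN replicate 2, only *Rorb* was called among the 6.

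Detection per cell was compared after astroglial cells had been thinned at random to 2000 UMIs, because depth differed between libraries. Shallower cells were left out, 65 of 378 and 40 of 553 in the postnatal libraries and 31 of 321 and 46 of 310 at 3m, so that 313, 513, 290 and 264 cells remained. *Rorb* was then found in 60.7% and 45.0% of postnatal cells and in 84.8% and 82.6% of 3m cells. *Rora* was found in 10.2% and 8.58% and then in 18.3% and 19.3% of cells. *Dbx2* was found in 14.1% and 7.21% and then in 25.5% and 26.9%. The exact binomial intervals drawn in the plot of detection cover the sampling of cells within a library only, and with 2 libraries an age no test of these shares was made.

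*Lhx2* was found in 28.4% and 43.9% of the thinned postnatal cells and in 35.2% and 36.4% of the 3m cells, with PN replicate 2 the highest. *Pou3f3* was found in 40.3% and 48.5% and then in 49.0% and 48.5%. *Fezf2* was found in 2.88% and 2.53% and then in 5.17% and 3.03% of cells. As a background, thinned 3m oligodendrocytes held *Rorb* in 1.61% and 0.685% of cells, *Dbx2* in 0.537% and 0.342% and *Lhx2* in 0.716% and 1.03%. For *Rora* this background was 5.01% and 5.82%, and for *Pou3f3* it was 22.7% and 25.3%. Before thinning, median depth was 5986 to 12254 UMIs in astroglia, and the oligodendrocyte shares were 3.70% and 7.09% for *Rorb*.

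On average 1.57 and 1.56 of the 6 factors were detected per thinned postnatal cell and 2.18 and 2.17 per 3m cell. The difference of 0.61 factors had an exact two-sided permutation p of 0.33 over libraries, which is the smallest value that 2 against 2 allows. Cells with none of the factors made up 13.7% and 16.4% of postnatal astroglia and 4.48% and 4.92% at 3m. Cells with 3 or more made up 18.8% and 17.0% and then 33.8% and 34.5%. In thinned oligodendrocyte precursors the mean was 0.60, 0.73 and 0.70 factors in PN replicate 1, PN replicate 2 and 3m replicate 1.

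**Figure D2:**
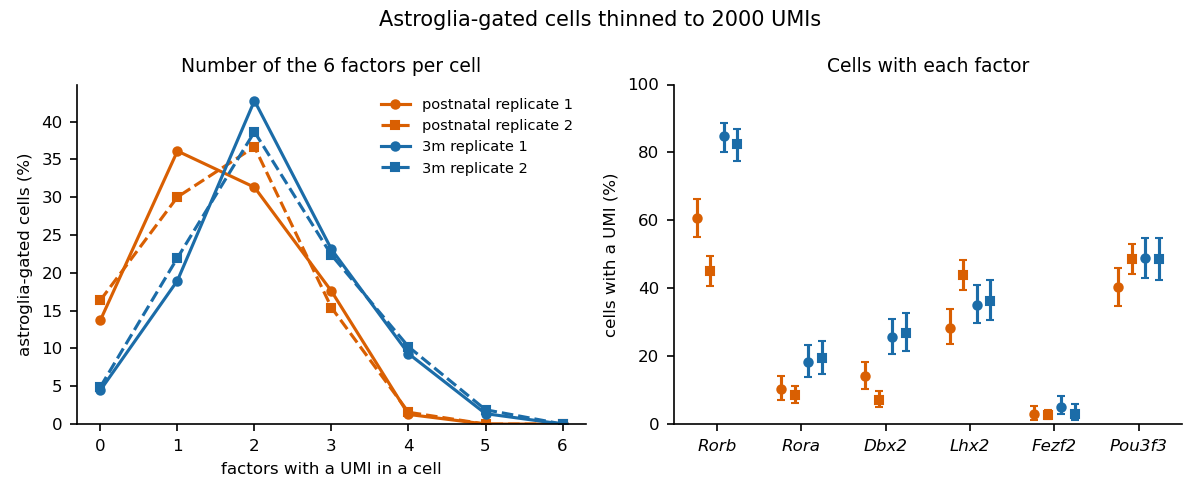
Left, percentage of thinned astroglia-gated cells (y axis) by number of the 6 factors with a UMI (x axis), for each library. Right, percentage of thinned cells with a UMI of each factor, with exact binomial 95% intervals over cells, PN libraries in orange and 3m libraries in blue, replicate 1 as circles and replicate 2 as squares. The curves of both 3m libraries and of PN replicate 2 peak at 2 factors and that of PN replicate 1 at 1, and the *Rorb* share is above 82% in both 3m libraries and below 61% in both PN libraries.

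Co-detection within a library was compared with the product of the separate shares. In thinned cells, *Rorb* and *Lhx2* were found together in 18.5%, 20.5%, 30.3% and 31.1% of the cells of PN replicate 1, PN replicate 2, 3m replicate 1 and 3m replicate 2. The products of the separate shares were 17.3%, 19.7%, 29.8% and 30.0%. The ratios of this pair were thus near 1, at 1.02 to 1.07. It was above its product in all 4 libraries, and with 15 pairs compared nothing is read from 1 such pair. *Lhx2* and *Fezf2* were found together in 5, 11, 5 and 1 thinned cells, at 1.95 and 1.93 times the product in the postnatal libraries and at 0.95 and 0.34 times at 3m. *Dbx2* and *Lhx2* were found together in 11, 8, 25 and 27 thinned cells, at 0.88, 0.49, 0.96 and 1.05 times the product. The ratios of all pairs ran from 0 to 1.95, and those far from 1 rest on few cells. In cells that were not thinned, where cells of a library differ in depth, 12 of 15 pairs were above the product in all 4 libraries.

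*Dbx2* and *Fezf2* were found together in fewer unthinned postnatal cells than the product of their shares. This pair held the lowest ratio of the 15 unthinned pairs and is named here after its values were seen, so nothing is read from it. The 2 genes shared 4 cells of PN replicate 1 and 2 cells of PN replicate 2, at 0.41 and 0.15 times the product. At 3m they shared 30 and 37 cells, at 1.27 and 1.23 times the product. After thinning, 0, 0, 7 and 2 cells held both, which is too few for a comparison.

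For counts that vary by counting alone, the ratio of variance to mean between thinned cells is 1. For *Rorb* this ratio was 1.22 to 1.33 over the 4 libraries, for *Pou3f3* 1.22 to 1.34, for *Lhx2* 1.12 to 1.34 and for *Dbx2* 1.12 to 1.24. For *Rora* it was 0.999 in PN replicate 2 and 1.13 or more in the others. For *Fezf2* it was 1.89 in PN replicate 1, where a cell held up to 6 UMIs before thinning, and 0.97 to 1.07 in the other 3 libraries.

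The second comparison asked in which cells the factors were expressed. At 3m, all 6 factors were higher in astroglia than in oligodendrocytes, the myelinating cells, in edgeR's test with the library as a block. Of 11618 genes tested, 25.9% were called higher in astroglia. *Dbx2* and *Fezf2* passed the filter on low counts only through the astroglia, so that they had to differ, and their calls are no support. The other 4 factors passed it in both classes. *Rorb* fell from 1132 and 1038 CPM in astroglia to 8.10 and 10.1 CPM in oligodendrocytes, a log2 fold change of 6.90 ± 0.19 (SE). *Dbx2* was at 168 and 175 CPM against 2.29 and 1.84 CPM, with 6.33 ± 0.19 (SE). *Lhx2* was at 253 and 248 CPM against 3.17 and 3.91 CPM, with 6.15 ± 0.17 (SE).

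*Fezf2* had 103 UMIs in 3m astroglia and 2 UMIs in 3m oligodendrocytes, a ratio of CPM of 99.9 with an exact counting interval from 27.0 to 836. *Rora* and *Pou3f3* differed less between these classes. *Rora* was at 25.2 and 33.6 CPM in oligodendrocytes (log2 fold change of 2.03 ± 0.13, SE), and *Pou3f3* was at 146 and 151 CPM (1.33 ± 0.11, SE). Thinned oligodendrocytes held a *Pou3f3* UMI in 22.7% and 25.3% of cells and a *Rora* UMI in 5.01% and 5.82%. The largest edgeR adjusted p of the 6 was 4.36e-30, from a fit with 1 residual degree of freedom in which the spread was borrowed from all genes, and DESeq2 gave at most 1.70e-05.

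Oligodendrocyte precursors, the glial class nearest in lineage that was present at both ages, were compared in the 3 libraries with at least 10 such cells. Of 11464 genes tested, 10.3% were called higher in astroglia, and 4 of the 6 factors were, 1 of them (*Fezf2*) with a call that the filter fixed in advance, as given below. Of all calls 56.4% were higher in astroglia, against 40.2% with no scaling, where the median of all genes was -0.32 and 4 factors were called as well. *Lhx2* was at 36.4, 23.1 and 23.5 CPM in precursors of PN replicate 1, PN replicate 2 and 3m replicate 1, below the astroglia of each library (3.26 ± 0.35, SE, on the log2 scale, edgeR adjusted p of 7.68e-05). *Rorb* was at 135, 92.4 and 104 CPM in precursors (2.75 ± 0.44, SE, edgeR adjusted p of 0.000979). *Rora* was at 8.08, 15.4 and 43.6 CPM (2.50 ± 0.39, SE, edgeR adjusted p of 0.000881), and without the library as a block the edgeR adjusted p was 0.0560. The precursors numbered 74, 11 and 44 in these libraries. In them *Rora* rests on 6, 2 and 13 UMIs and *Lhx2* on 27, 3 and 7. In PN replicate 2 a floor of 3 counts lay at 23.1 CPM, above the *Rora* value and level with that of *Lhx2*.

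*Fezf2* had 0 UMIs among the 1169987 UMIs of these precursors and 192 UMIs in astroglia of the same libraries. Against a floor of 3 counts over the group it was at least 5.04-fold higher in astroglia. It passed the filter on low counts only through the astroglia, so that it had to differ, and its call is no support.

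*Dbx2* and *Pou3f3* were not called in this comparison. *Dbx2* was at 59.3, 84.7 and 73.8 CPM in precursors against 115, 33.2 and 168 CPM in astroglia, so it was higher in the precursors of PN replicate 2 and lower in those of the other libraries (0.87 ± 0.46, SE, edgeR adjusted p of 0.242). The value in precursors of PN replicate 2 rests on 11 UMIs, with an exact Poisson 95% interval from 42.3 to 152 CPM. Without PN replicate 2 *Dbx2* was called, at 1.55. *Pou3f3* was at 185, 223 and 292 CPM in precursors, under the astroglia of each library, with a log2 fold change of 0.94 ± 0.26 (SE) and an edgeR adjusted p of 0.0269, which missed only the limit on size. With no scaling it was 0.60, with an edgeR adjusted p of 0.171.

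**Figure D3:**
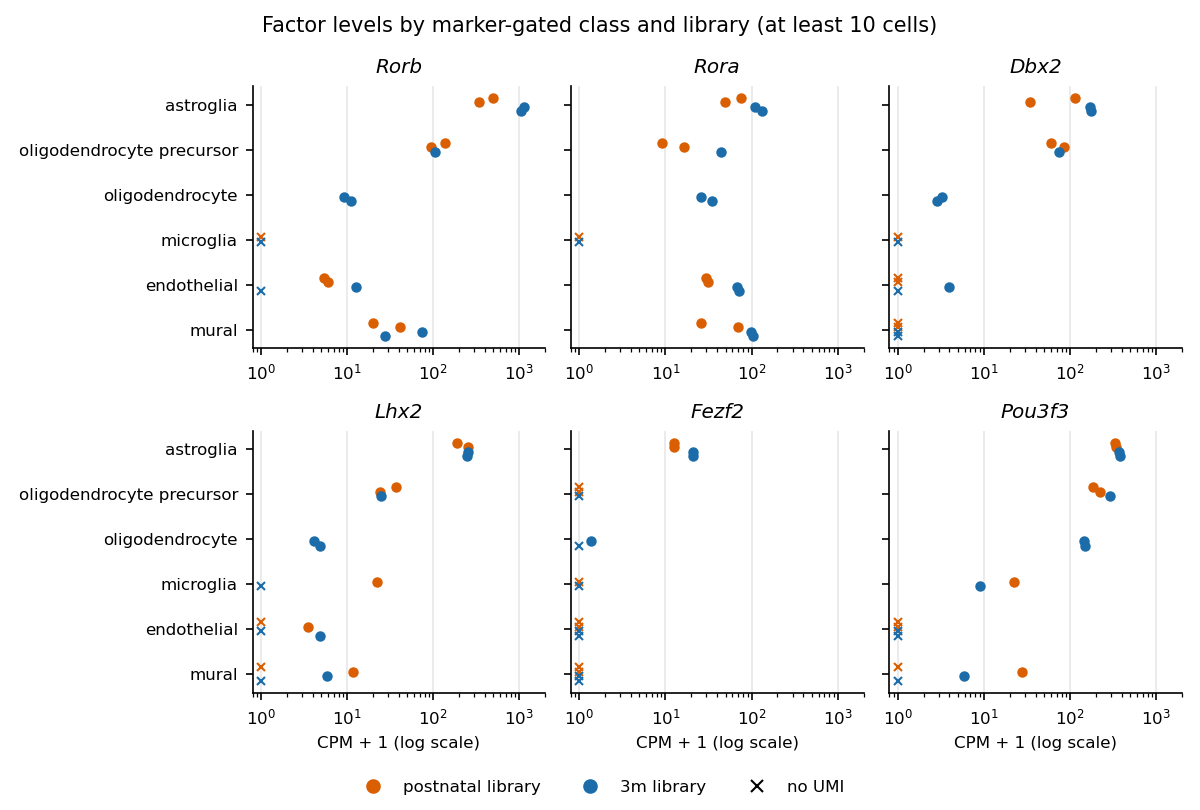
CPM + 1 of each factor (x axis, log scale) by marker-gated class (y axis) for libraries with at least 10 cells of that class, PN libraries in orange, 3m libraries in blue and crosses for 0 UMIs. Among the classes drawn, *Fezf2* has UMIs in astroglia and, with 2 UMIs, in 3m oligodendrocytes, whereas *Rora* is present in endothelial and mural cells and *Rorb* in mural cells as well, values that were not corrected for free RNA.

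The share of all UMIs of a factor that lay in astroglia differed accordingly. In the 3m libraries astroglia held 25.4% and 33.6% of all UMIs, but 93.6% and 97.1% of those of *Rorb*, 88.8% and 97.3% of those of *Dbx2* and 89.4% and 92.2% of those of *Lhx2*. They held 53.3% and 61.9% of the UMIs of *Rora* and 48.5% and 59.2% of those of *Pou3f3*. In the postnatal libraries, where astroglia held 56.6% and 74.4% of all UMIs, at least 80.7% of the UMIs of each factor lay in them.

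UMIs of *Rora* were also found in the cells of blood vessels. Endothelial cells held it at 29.0 and 30.1 CPM in the postnatal libraries and at 67.7 and 69.8 CPM at 3m, from 18 to 26 UMIs per library. The exact Poisson intervals were 18.9 to 42.5 and 19.3 to 44.8 CPM, and then 42.9 to 102 and 41.4 to 110 CPM. Mural cells, the contractile cells around vessels, held it at 25.0 and 69.1 CPM and then at 98.5 and 102 CPM, from 4 to 27 UMIs. The 3m libraries were above the postnatal ones in both classes, but with 13 to 61 cells per library this was not tested. Median depth of the endothelial cells was 44920 and 30449 UMIs in the postnatal libraries but 6425 and 5343 UMIs at 3m. Cells gated as erythroid by haemoglobin markers, 7 and 9 in the postnatal libraries, held *Rora* at 38.8 and 36.4 CPM, from 20 and 21 UMIs, with a median depth of 54581 and 64812 UMIs per cell. UMIs of *Rorb* were found in mural cells too, at 18.8 and 39.9 CPM and then at 73.9 and 26.4 CPM, from 3 to 15 UMIs, against 4.46, 5.02, 11.8 and 0 CPM in endothelial cells. In 3m ependymal cells, the ciliated cells that line the ventricles, 14 and 9 cells held *Rorb* at 73.6 and 36.0 CPM, *Lhx2* at 50.4 and 79.1 CPM and *Pou3f3* at 69.8 and 57.5 CPM, each from 5 to 19 UMIs. Free RNA was not estimated for these small classes, so their values are not read as expression. In microglia, with 2 to 24 cells per library, *Rora* had 0 UMIs in 3 libraries and 1 UMI in 3m replicate 2, and *Rorb*, *Dbx2* and *Fezf2* had 0 UMIs.

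The third comparison took whole preparations, all cells past the filter, as a bulk measurement of this tissue would. Here 0 of 6 factors were called higher with edgeR, beside 15.7% of the 14288 genes tested, and 0 were called lower, beside 13.3%. DESeq2 also called 0, and 3 factors had an unadjusted edgeR p under 0.05. In such sums, fewer cells of a type and less RNA per cell cannot be told apart.

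*Rorb* was at 304 and 256 CPM in the postnatal preparations and at 307 and 359 CPM at 3m (0.40 ± 0.15, SE, on the log2 scale, edgeR adjusted p of 0.0752). *Lhx2* was at 119 and 194 CPM and then at 71.8 and 90.4 CPM, with -0.80 ± 0.26 (SE) on the log2 scale and an edgeR adjusted p of 0.0533. *Fezf2* was at 7.29 and 8.96 CPM and then at 5.81 and 6.78 CPM (-0.23 ± 0.25, SE, edgeR adjusted p of 0.486). *Lhx2*, *Fezf2* and *Pou3f3* thus had values on the other side of 0 from those in astroglia. For these 3 both 3m libraries were below both postnatal ones, as for 44.5% of all genes tested, and for *Rorb* they were above, as for 33.4%. *Rora* (0.51 ± 0.20, SE) and *Dbx2* (0.25 ± 0.44, SE) overlapped between the groups. Without PN replicate 1, *Dbx2* was called higher at 1.07 and *Lhx2* lower at -1.14, and without PN replicate 2 *Dbx2* and *Pou3f3* changed sign (-0.30 and 0.064). With no scaling the median of all genes was -0.13 and the signs of the 6 stayed. The difference between the change in astroglia and that in whole preparations was not tested, since the cells are in part the same.

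**Figure D4:**
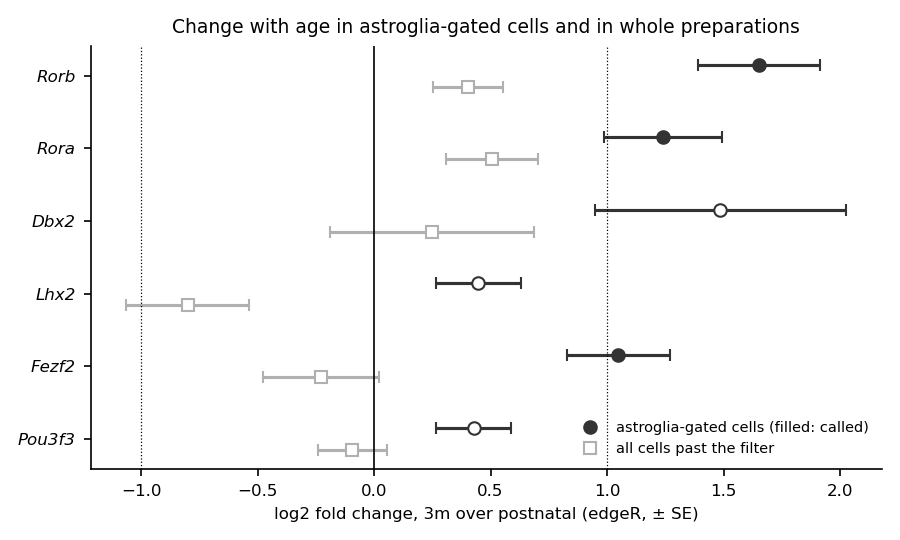
Log2 fold change of each factor, 3m over postnatal, with the SE of the edgeR fit, in astroglia-gated cells (circles, filled where called) and in all cells past the filter (squares, none called). Dotted lines mark the limit of 1 on size. In astroglia all 6 values lie above 0, and in whole preparations *Lhx2*, *Fezf2* and *Pou3f3* lie below it.

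Astroglia were also divided by cell cycle genes, as a description without a test. Cycling astroglia, with 3 or more UMIs of 10 cell cycle genes, numbered 24 and 71 in the postnatal libraries and 4 and 8 at 3m. This limit is on raw UMIs and so depends on depth. Median depth was 15248.5 and 30624 UMIs in the postnatal cycling cells against 9077.5 and 11344 in the others. At 3m the cycling cells had medians of 14723.5 and 1139.5 UMIs. In the postnatal libraries *Rorb* was lower in them, at 391 and 182 CPM against 504 and 399 CPM in the other postnatal astroglia. *Rora* was at 51.6 and 21.3 CPM against 77.6 and 60.0 CPM, and *Lhx2* at 178 and 133 CPM against 191 and 302 CPM. At 3m *Lhx2* was at 546 and 320 CPM in the 4 and 8 cycling cells against 246 and 246 CPM in the others. The values of the cycling cells rest on 34 and 27 UMIs, with intervals from 378 to 763 and from 211 to 466 CPM. The second interval covers the value of the other cells, so no reversal is read from this. *Rorb* was again lower at 3m, at 562 and 356 CPM against 1146 and 1060 CPM. Without the cycling cells *Rorb* and *Rora* were still called higher at 3m, *Dbx2* was then called as well (1.5, edgeR adjusted p of 0.0422) and *Fezf2* was not.

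Related genes were taken from 9 lists and read from the same edgeR fit of astroglia, in which 14.0% of genes were called higher and 10.9% lower with a median log2 fold change of -0.0035. Among genes of the circadian clock and its ROR elements, 8 of the 16 tested rose and 0 fell, with a median of 1.10. The 2 with the largest change were *Npas2*, a partner of BMAL1, which was at 2.53 and 0.119 CPM in the postnatal libraries and at 10.8 and 14.9 CPM at 3m (3.89 ± 0.93, SE, edgeR adjusted p of 0.0219), and *Nr1d1*, which encodes REV-ERBα. The values of *Npas2* rest on 10 UMIs and 1 UMI in the postnatal libraries and on 27 and 40 UMIs at 3m. It passed the filter on low counts only through the 3m libraries, so that it had to differ, and its call among the 8 is no support for the list. *Nr1d1* was at 27.8 and 10.4 CPM and then at 99.6 and 98.3 CPM (2.70 ± 0.44, SE, edgeR adjusted p of 0.00753). Without 3m replicate 1 and without 3m replicate 2, 5 and 3 genes of this list were called. The hour of tissue collection is not given in the sources used here, and its part in these values was not tested.

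Of 8 cofactors of nuclear receptors, 1 rose, namely the coactivator *Ncoa1*, from 55.6 and 46.5 CPM to 88.0 and 84.4 CPM (1.03 ± 0.17, SE, edgeR adjusted p of 0.0079), and 0 fell. The median of this list was 0.47. The call of *Ncoa1* sits at the limit on size. It was lost with DESeq2 (0.97), no scaling (0.76), no filter on low counts (0.96), without PN replicate 2 (0.85), without cycling cells (0.94), with an astroglia gate of 4 markers (0.997) and with cells thinned to 2000 UMIs (0.90), and by the edgeR adjusted p without 3m replicate 1 (0.0706) or 3m replicate 2 (0.0656).

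The study's list of further mature factors, which is not independent evidence either, had 4 genes that passed the filter on low counts, and 1 of them was called. *Nkx6-2*, a homeodomain factor also known from oligodendrocytes, rose from 3.28 and 1.31 CPM to 30.5 and 14.9 CPM (3.70 ± 0.56, SE, edgeR adjusted p of 0.0061). The summed level of the oligodendrocyte markers given above moved with it. Without astroglia that held a UMI of an oligodendrocyte marker, *Nkx6-2* was still called higher, at 2.43 with an edgeR adjusted p of 0.0228. It rests on 13 and 11 UMIs in the postnatal libraries and 76 and 40 UMIs at 3m, and it did not pass the filter on low counts with cells thinned to 2000 UMIs. *Zfhx2* was at 19.4 and 17.9 CPM and then at 30.1 and 31.0 CPM (0.98, edgeR adjusted p of 0.0127), just under the limit on size. It was called higher with no mitochondrial limit (1.04), without called doublets (1.03) and with a lead of at least 0.75 in the gate (1.04). The same held without cycling cells (1.05) and with cells thinned to 2000 UMIs (1.25), but not with DESeq2 (0.93) or no scaling (0.72). *Prox1* was at 5.05 and 3.22 CPM and then at 9.24 and 2.99 CPM, and *Pou3f1* at 9.34 and 16.7 CPM and then at 5.62 and 4.11 CPM. *Onecut2*, at 0, 0.238, 1.20 and 0 CPM, did not pass the filter.

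Of the study's 9 immature ETS factors, which are not independent evidence either, 5 were tested, 0 rose and 1 fell. This was *Elk3*, which went from 50.0 and 47.4 CPM to 7.63 and 6.72 CPM (-2.49 ± 0.22, SE, edgeR adjusted p of 0.00181). *Etv4*, named here after its values were seen, was at 64.9 and 61.2 CPM and then at 26.5 and 27.3 CPM. It missed only the limit on size (-0.96 ± 0.16, SE, edgeR adjusted p of 0.00816). Of the 5 genes tested, 1 had a value above 0.

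Of the partners of LIM-homeodomain factors, 9 of 10 were tested. *Ldb2*, a LIM-domain-binding cofactor, fell from 12.1 and 12.7 CPM to 0.402 and 0.374 CPM (edgeR adjusted p of 0.00272), and no partner was called higher. *Lmo1*, a LIM-only protein named here after its values were seen, was at 18.2 and 40.5 CPM and then at 48.6 and 46.7 CPM (0.94 ± 0.34, SE, edgeR adjusted p of 0.0758). It was called higher with the replicate block (1.02), without PN replicate 2 (1.61), without cycling cells (1.15), with cells thinned to 2000 UMIs (1.14) and with a lead of at least 0.75 in the gate (1.13). The values of *Ldb2* are 155 UMIs in the postnatal libraries and 2 UMIs at 3m, a ratio of CPM of 32.4 with an exact counting interval from 8.82 to 270.0. It passed the filter only through the postnatal libraries, so that it had to differ. Of the other 11 LIM-homeodomain genes, 0 passed the filter on low counts, and none of them was above 0.374 CPM in astroglia of any library. *Lhx2* was thus the member of that family detected at a substantial level. The closest relatives *Dbx1* and *Fezf1* had 0 UMIs in astroglia of all 4 libraries.

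Of 7 further POU genes, 4 were tested, and 0 rose or fell (median of -0.19), with 2 unadjusted edgeR p-values under 0.05 among them. Both genes are named here after their values were seen. *Pou2f1* was at 52.0 and 59.0 CPM and then at 80.7 and 82.9 CPM (0.82 ± 0.15, SE, edgeR adjusted p of 0.00929), so that it missed only the limit on size. *Pou3f2*, a close paralogue of *Pou3f3*, was at 282 and 302 CPM and then at 178 and 177 CPM (-0.45 ± 0.15, SE, edgeR adjusted p of 0.0581), with its CPM lower at 3m where that of *Pou3f3* was higher. Whether reads were split between these paralogues was not tested.

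All 6 genes of a list of astrocyte effectors, taken from genes that the study names for mature astrocytes, rose, with a median of 2.32. *Glul*, which encodes glutamine synthetase, was at 1203 and 680 CPM and then at 2577 and 2415 CPM (1.66), and *Slc1a2*, the glutamate transporter GLT-1, at 2382 and 1026 CPM and then at 5643 and 5665 CPM (1.98). *Gjb6*, the gap junction protein connexin 30, was at 19.4 and 1.07 CPM and then at 290 and 324 CPM (5.35). *S100b*, a calcium-binding protein, was at 143 and 27.4 CPM and then at 461 and 435 CPM (2.66). *Maob*, monoamine oxidase B, was at 23.2 and 5.36 CPM and then at 74.7 and 66.9 CPM (2.67), and *Apoe*, a lipid carrier, at 11430 and 7007 CPM and then at 21678 and 26809 CPM (1.65). Each was lower in PN replicate 2 than in PN replicate 1, as were *Rorb*, *Rora* and *Dbx2*. This list was picked by the study, and without 3m replicate 1 or without 3m replicate 2, 0 of 6 were called.

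**Figure D5:**
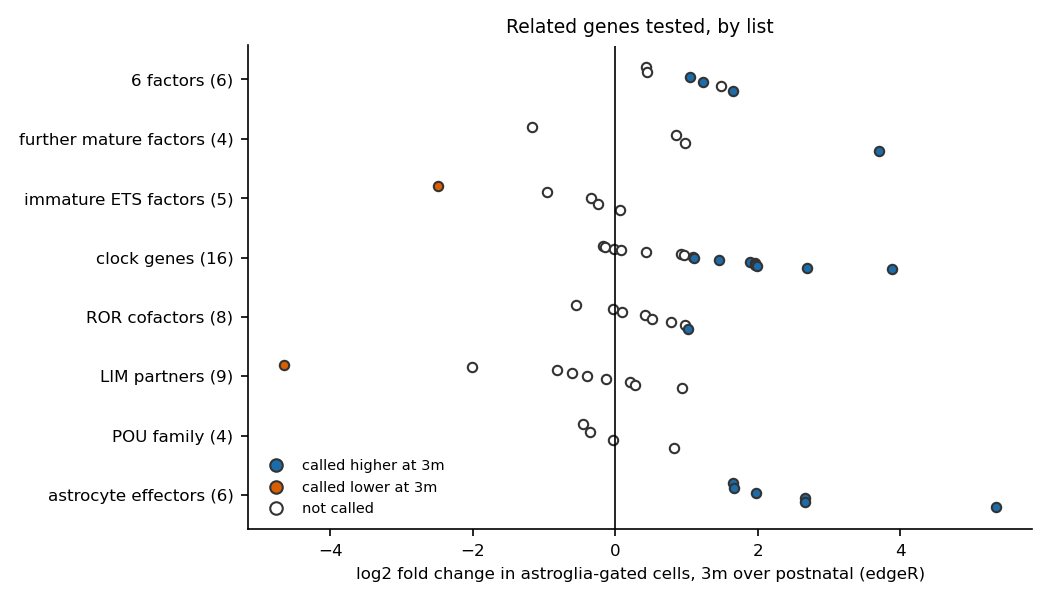
Log2 fold change of each tested gene (x axis, 3m over postnatal, edgeR, astroglia-gated cells) by list (y axis, number tested in brackets), blue where called higher, orange where called lower and white where not called. Of the clock genes 8 of 16 and of the effectors 6 of 6 are blue, and *Elk3* and *Ldb2* are the 2 orange points.

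Across 15 sums of a class in a library with at least 20 cells, which share libraries and differ in depth, the 6 factors had partly the same pattern. The correlation of log2(CPM + 1) was 0.87 between *Dbx2* and *Lhx2*, 0.85 between *Fezf2* and *Lhx2* and 0.84 between *Lhx2* and *Rorb*. It was lowest for *Rora*, at 0.51 with *Rorb*, 0.23 with *Dbx2* and 0.04 with *Pou3f3*. Among 11585 further genes that reached 20 CPM in a sum, those most similar to *Rorb* included *Trps1* (0.93) and *Tmem47* (0.92). For *Rora* they were *Tle1* (0.92), *Fam13c* (0.92) and *Pkn2* (0.91). For *Dbx2* they were *Rgs7* (0.99), *Chst10* (0.98) and *6030419C18Rik* (0.98), and for *Lhx2* they were *Adhfe1* (0.97), *Emx2* (0.97) and *Gldc* (0.96). *Fezf2* was most similar to *Ppp1r3g* (0.996), *Pdzph1* (0.995) and *Aqp9* (0.991), and *Pou3f3* to *Hepacam* (0.98), *Pcdh17* (0.98) and *Srgap3* (0.97). These are descriptions over sums in which astroglia are 4 of the 15 points.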

How the data were processed

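The deposited values were UMI counts, not normalised, for each gene in each barcode, with the runs of a library merged. Per the labels, Cell Ranger and Seurat 3.1.1 with the mm10 build were used, and the methods of the study name cellranger count. No deposited value column was left unused. Cells were filtered as in the study, scored for each of 9 classes by the mean of ln(1 + 10000 × count / total) over its markers, and gated at a score of at least 0.5, a lead of at least 0.25 and at least 3 detected markers. From 5 to 14 astroglia per library lay within 0.25 of the limit on the lead. Scrublet, run in Scanpy 1.11.5, marked 3, 4, 24 and 4 doublets, which were kept in the main analysis. Its automatic threshold in 3m replicate 1 moved with numerical precision, and double precision was used.

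Astroglia had 3959561 and 8393172 UMIs in the postnatal libraries and 2489860 and 2676746 at 3m. Counts were summed per library, or per library and class, and tested with edgeR 4.0.16 (filterByExpr, trimmed mean of M values, quasi-likelihood F test). DESeq2 1.42.0 was an alternative. CPM values are per 1000000 UMIs of the cells summed, and all values are counts of 3′ ends, so levels were compared between libraries and classes. Where genes are set beside each other, this describes the UMIs detected and not their RNA levels. Scripts were tested on simulated data. The replicates of a group were not copies of each other, since their counts differed by more than sampling noise (chi-square per degree of freedom of 30.0 for the postnatal and 3.47 for the 3m libraries).

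The 6 members come from the study, and they, the marker and gene lists and the tests were chosen with earlier results of these data known. Named genes were the 6 factors, up to 2 called genes per direction with the largest change from each list, lists of at most 6 genes in full, and for each factor the 3 genes with the most similar pattern. A planned division of astroglia and the values of 2 further genes under this rule are not reported here. Replicates share a number in the labels but no stated litter or day, so the main age test had no block.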

Additional observations from a re-analysis of the deposited data

How the results depend on the processing

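The number of factors called higher in astroglia was 3. It was 1 with no scaling between libraries, ranged from 0 to 4 when a library was left out (where a lone library is assumed to vary like the other group) and was 2 to 4 under the other alternatives. Without 3m replicate 1 and without 3m replicate 2, 708 and 656 of all genes were called higher and 409 and 338 lower, in place of 1652 and 1283. The lower calls were 1996 with no scaling and 2054 with the adjusted p alone. In whole preparations the count of 0 ranged from 0 to 1 when a library was left out, *Dbx2* from -0.30 to 1.07 and *Pou3f3* from -0.26 to 0.064, with both signs reversed without PN replicate 2. There the adjusted p alone gave 3157 lower calls in place of 1907. Against oligodendrocytes 6 factors were called under every alternative run, among them *Dbx2* and *Fezf2*, whose calls are no support, as given above. Leaving out a library was not run, since 1 library leaves no residual degree of freedom. Against precursors 3 to 5 were called, and a call of *Fezf2* is again no support. Over all genes the 1184 higher and 917 lower calls became 706 and 1051 with no scaling and 590 and 481 with no replicate block. They became 653 and 468 without PN replicate 1. The difference in factors per cell ranged from 0.61 to 0.62 without a library and kept its sign at both other depths. The count of pairs above the product in every library was 12 without thinning, in place of 1. The 8 clock genes became 3 to 10, and the 6 effectors 0 to 6, when a library was left out. The alternatives for pairs and for these lists were chosen after seeing the data.

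Libraries with the same number deviated together only weakly (correlation of 0.15 over 11800 genes, with 2 pairs), so the numbers were not read as pairs. With the library number as a replicate block, 4 factors were called in astroglia, *Dbx2* (edgeR adjusted p of 0.0222) in addition, and 0 in whole preparations. Leaving out the cells with shared barcodes changed none of the 4 counts of factors called. *Fezf2*, with 46 to 97 UMIs per library, was the factor most limited by depth.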
